A study of Homo sapiens with 5 samples.

Results

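The VPS genes are a set of human genes named after yeast vacuolar protein sorting mutants, and most of their products help move membrane proteins between endosomes, the Golgi and lysosomes. Members were taken by symbol, as every row of a ribosome footprint count table whose symbol was VPS, a number and at most 1 letter. That gave 30 of 13638 rows, all of which passed the filter on low counts that kept 11205 rows. Symbols chose the members, but the family was put forward with knockout and wild-type values of these libraries in view, so its fold changes and calls are given as a description. The libraries came from HAP1, a near-haploid human cell line derived from a chronic myeloid leukaemia line. They comprised 3 libraries of ZCCHC4 knockout (KO) cells and 2 of wild-type (WT) cells, with no treatment named in the labels for either genotype. ZCCHC4 is a methyltransferase that, per the study's title, places N6-methyladenosine on 28S ribosomal RNA. The labels do not say how the gene was disrupted, whether the KO cells are a single clone or whether libraries came from separate cultures, and p-values therefore refer only to how far these libraries spread, a spread that may be technical.

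Most VPS proteins work as subunits of larger machines. Retromer pulls receptors out of endosomes for reuse, while the ESCRT complexes sort ubiquitinated receptors into vesicles that bud inward and are degraded in the lysosome. HOPS and CORVET tether endosomes and lysosomes before they fuse, GARP and EARP tether vesicles arriving at the Golgi or at recycling endosomes, and the VPS13 proteins are long bridges that carry lipids between membranes at organelle contacts.

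Library totals were 29191146, 16940732 and 31557573 counts in KO replicates 1 to 3, against 5302160 and 4887380 in the WT libraries, so depth and genotype cannot be told apart. KO replicate 2 stood apart from the other KO libraries, with a chi-square over genes of 27.7 and 24.6 per degree of freedom against KO replicates 1 and 3, which differed from each other by 2.97. The WT libraries differed from each other by 1.14, close to sampling noise but above it. For the same relative spread this measure grows with depth, so its values in the shallower WT pair and in the KO pairs cannot be compared directly. ZCCHC4 itself had 105, 55 and 147 counts in the KO libraries, against 93 and 71 in the WT libraries, or 4.08 ± 0.81 against 14.6 ± 1.97 CPM (SD, n = 3 and n = 2). CPM are counts-per-million after TMM scaling, and a log2 fold change is KO over WT with its standard error (SE). A gene passed at a Benjamini-Hochberg adjusted p under 0.05 in edgeR's quasi-likelihood test over all 11205 genes. Of the epithelial markers, 4 of 5 had rows and summed to 135 to 157 CPM in KO and 145 to 154 CPM in WT. Of the fibroblast markers, 2 of 4 had rows, with 8.53 to 12.3 CPM in KO and 16.2 to 18.1 CPM in WT, and BCR and ABL1, the fusion partners of the parent leukaemia, summed to 4.88 to 5.31 CPM in KO and 7.93 to 8.03 CPM in WT. Both were lower in KO without overlap, and their part in the results was not tested. Of the leukocyte markers, 2 of 8 had rows (CD34 and CD33) and summed to at most 0.062 CPM in KO and 0.373 CPM in WT, near 0. The others (PTPRC, GATA1, SPI1, ITGAM, MPO and CD14) had no single row, so their levels are not known here. Footprints count ribosomes on messages and total RNA was not analysed here, so the amount of a message and its translation cannot be told apart.

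Footprints on most VPS genes were lower in KO cells. Of the 30 genes, 18 were lower, 4 were higher and 8 did not pass, and 6 of the 18 were lower by 2-fold or more (VPS37A, VPS37D, VPS16, VPS8, VPS13B and VPS13D). The median log2 fold change of the 30 was -0.49, beside 0.02 for all genes tested. In the same comparison 60% of all genes passed, 30.2% as higher, 29.8% as lower and 13.1% as lower by 2-fold or more. KO and WT libraries did not overlap for 25 members, of which 20 had KO below WT and 5 had KO above WT. Over all genes, 76.4% did not overlap, 37.9% with KO below WT and 38.5% with KO above WT.

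The lower calls were spread over every complex, and the higher calls came from ESCRT and from the HOPS and CORVET core. Every VPS13 gene was lower (4 of 4, median log2 fold change -0.98), as were 5 of 9 ESCRT genes (median -0.68), 4 of 7 HOPS and CORVET genes (-0.36) and 2 of 3 retromer genes (-0.21). GARP and EARP had 1 of 4 lower, with a median of -0.06. Scaled by library totals in place of TMM, which moved the median of all genes to -0.20, the family's median was -0.71, with 21 lower and 0 higher in edgeR (0 higher at an unadjusted p under 0.05 as well). The same scaling gave 2391 higher and 4563 lower genes in all, against 3380 and 3341 with TMM. DESeq2 called 3 members higher and 18 lower, beside 3110 and 3138 genes in all. Without KO replicate 2 there were 4 higher and 20 lower members, beside 4164 and 4012 genes in all. Without KO replicate 1 there were 1 higher and 18 lower members, beside 3126 and 3109 genes. Without KO replicate 3 there were 2 higher and 17 lower members, beside 2993 and 2976 genes. The higher count was thus the less stable of the 2 numbers. Without either WT library, where 1 WT sample is left, both member counts fell, as did both counts over all genes.

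**Figure D1:**
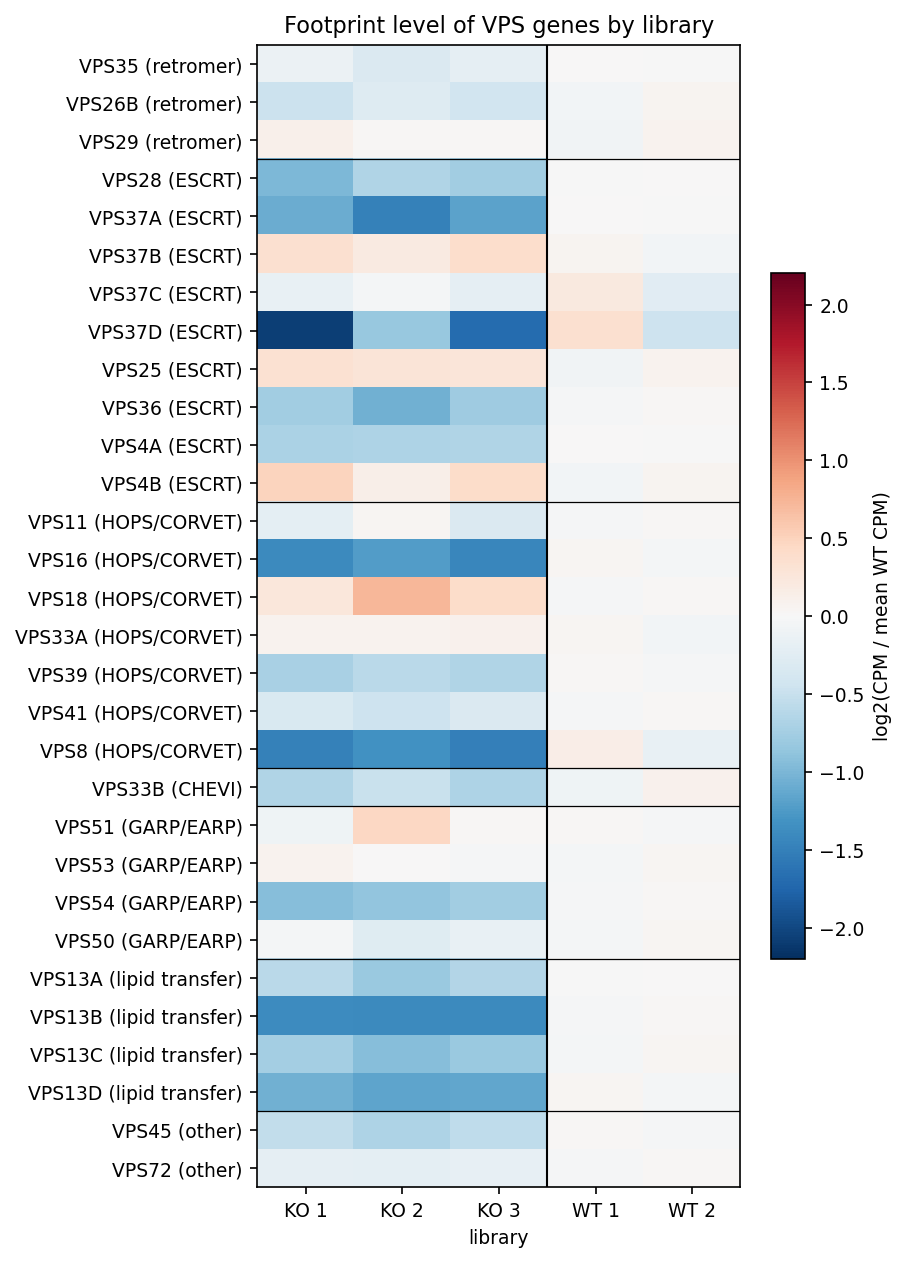
Footprint level of each VPS gene (rows, grouped by complex) in each library (columns), as log2 of CPM over the mean CPM of the 2 WT libraries, blue lower and red higher. The KO columns of VPS16, VPS8 and VPS13B are blue in all 3 libraries, those of VPS18 are red, and VPS51 is red in KO replicate 2.

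**Figure D2:**
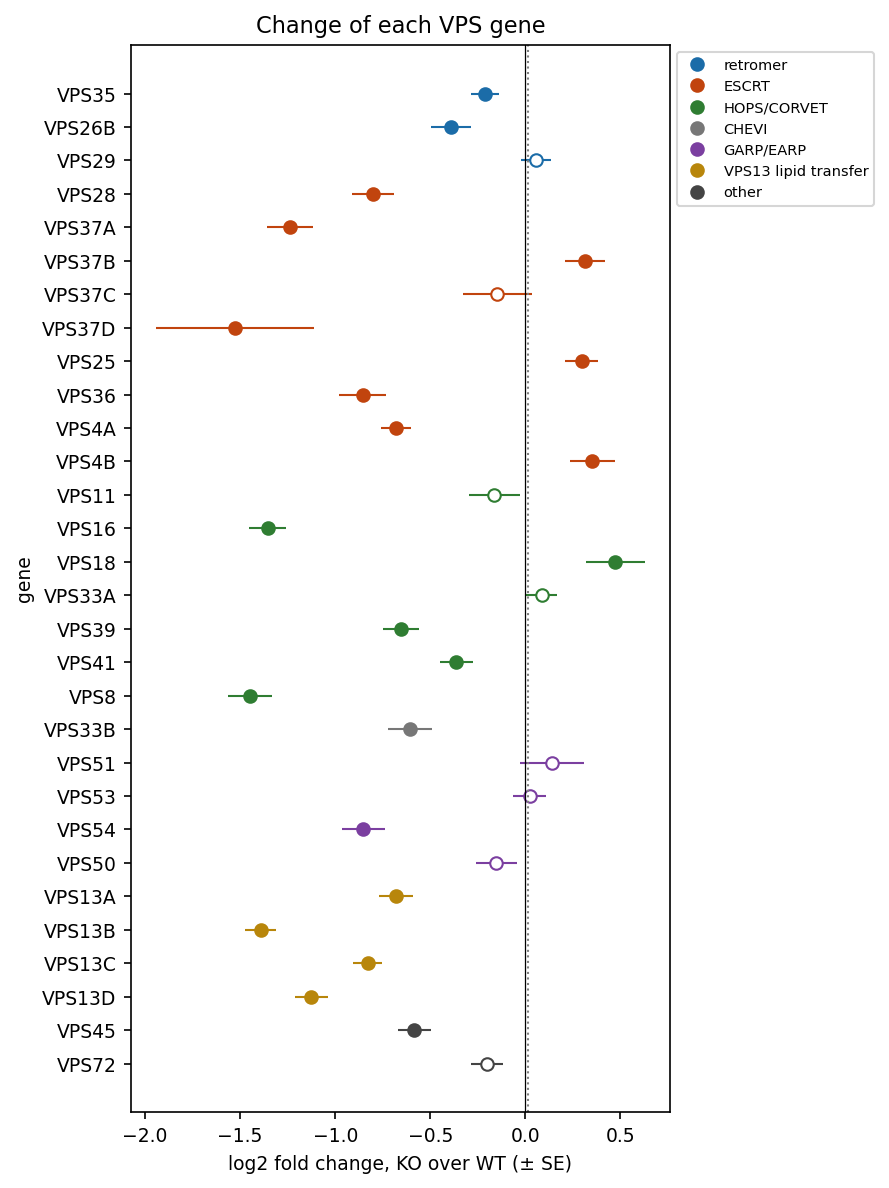
Log2 fold change, KO over WT, of each VPS gene with bars of 1 SE. Filled points passed at an adjusted p under 0.05 and open points did not, colours give the complex, and the dotted line is the median of all genes tested (0.02). The 18 lower genes run from -0.21 (VPS35) to -1.53 (VPS37D), and the 4 higher genes from 0.30 to 0.47.

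Retromer's core trimer showed small changes, and VPS35 the smallest among the lower genes. VPS35, the long scaffold that holds the trimer together (GRCh38 chromosome 16, 46656132 to 46689192), had 413, 364 and 394 CPM in the KO libraries, against 456 and 448 CPM in the WT libraries. Every KO library lay below both WT libraries, and the log2 fold change was -0.21 ± 0.07 (SE, adjusted p = 0.034 in edgeR). The VPS35 call was lost without WT replicate 1, WT replicate 2 or KO replicate 3, at adjusted p of 0.204, 0.154 and 0.0702, and with no filter on low counts at 0.0835. VPS26B, an arrestin-like subunit that binds cargo adaptors, had 30.4, 34.9 and 31.8 CPM in KO against 40.5 and 44.2 CPM in WT. The groups did not overlap, and VPS26B fell by 0.39 ± 0.11 on the log2 scale (adjusted p = 0.0113 in edgeR), a call lost without WT replicate 2 (adjusted p = 0.117). Its coding exons share 223 nt with the opposite-strand gene NCAPD3, and the strand used in counting is not given in the sources used here. VPS29, a small subunit shared with the related retriever complex, had 212, 200 and 200 CPM in KO and 186 and 207 CPM in WT. These ranges overlapped, and the difference of 0.06 ± 0.08 did not pass (adjusted p = 0.568) and was below 0 without WT replicate 1 (-0.02). VPS26A and VPS35L were not analysed here, and DSCR3, the older symbol of the retriever subunit VPS26C, lies outside the rule at -0.21 ± 0.11 (adjusted p = 0.125).

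In ESCRT-I, the complex that recognises ubiquitinated cargo, the shared subunit VPS28 and VPS37A, the VPS37 paralog with the most footprints in WT, were lower. VPS28, which links ESCRT-I to ESCRT-II, had 37.6, 47.1 and 43.9 CPM in the KO libraries, against 74.0 and 75.2 CPM in the WT libraries. All KO values lay below both WT values, and VPS28 fell by 0.80 ± 0.11 (adjusted p = 0.000263 in edgeR). VPS37A to VPS37D are alternative subunits of ESCRT-I that decide its composition. VPS37A had 32.0, 24.4 and 30.1 CPM in KO against 68.6 and 67.9 CPM in WT, with KO replicate 2 the lowest. The KO mean was 42.2% of the WT mean (log2 fold change -1.24 ± 0.12, adjusted p = 3.64e-05). VPS37A lies on chromosome 8 at 17246571 to 17298024, and the 143 tested genes of that chromosome below 50 Mb, a stretch known from earlier results of these data, had a median of -0.90 with 104 lower and 9 higher. The 26 tested genes within 5 Mb of VPS37A had a median of -0.75, and the part of the position in the fall of VPS37A was not tested.

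The other VPS37 paralogs did not all move the same way. VPS37B had 44.7, 40.2 and 45.9 CPM in KO against 36.4 and 33.8 CPM in WT, with all KO values above both WT values. It was higher by 0.31 ± 0.11 (adjusted p = 0.0302 in edgeR). The VPS37B call was lost without WT replicate 1, WT replicate 2, KO replicate 1 or KO replicate 3, at adjusted p of 0.0943, 0.201, 0.0815 and 0.121, in DESeq2 at 0.0649, with upper quartile factors at 0.0598, with library totals at 0.444 and with a mean count of at least 50 at 0.0762. VPS37C had 8.14, 8.79 and 7.89 CPM in KO and 10.5 and 7.65 CPM in WT. The groups overlapped and the difference of -0.15 ± 0.18 did not pass (adjusted p = 0.507), turning to 0.11 without WT replicate 1. VPS37D was the member with the fewest counts, 30, 42 and 42 in the KO libraries and 34 and 18 in the much shallower WT libraries, or 1.10, 2.60 and 1.42 CPM in KO against 5.86 and 3.36 CPM in WT. The WT libraries differed widely from each other, and the log2 fold change of -1.53 ± 0.42 (adjusted p = 0.011) was -1.06 without WT replicate 1 and then did not pass (adjusted p = 0.21).

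The 2 VPS subunits of ESCRT-II went opposite ways. VPS25, present in 2 copies in the complex and the subunit that binds ESCRT-III, had 111, 106 and 105 CPM in the KO libraries, against 82.9 and 92.2 CPM in the WT libraries. VPS25 was higher by 0.30 ± 0.09 (adjusted p = 0.015 in edgeR), without overlap, and the call was lost without WT replicate 1 (0.183), KO replicate 1 (0.0548) or with library totals (0.437). SNF8, the remaining ESCRT-II subunit, lies outside the naming rule and was added after its value was seen. It had 52.2, 61.2 and 54.9 CPM in KO against 75.5 and 71.9 CPM in WT, a fall of 0.40 ± 0.10 (adjusted p = 0.0073), a call lost without WT replicate 1 (0.0835). VPS36, which binds both ubiquitin and membrane lipid, had 22.1, 18.1 and 22.0 CPM in KO against 37.1 and 38.4 CPM in WT. It fell by 0.86 ± 0.12 (adjusted p = 0.000308), with all KO libraries below both WT libraries.

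VPS4A and VPS4B are the AAA ATPases that take ESCRT-III filaments apart, and these close paralogs also went opposite ways. VPS4A (chromosome 16, 69311356 to 69326939) had 74.4, 74.9 and 75.5 CPM in the KO libraries, against 121 and 119 CPM in the WT libraries. Its KO values lay within 1.1 CPM of each other and far below WT, and VPS4A fell by 0.68 ± 0.08 (adjusted p = 8.14e-05 in edgeR). VPS4A shares 372 nt of coding exon with COG8 on the opposite strand and 1191 nt with a same-strand readthrough gene, so its counts may hold reads of both. VPS4B (chromosome 18, 63389190 to 63422463) had 119, 93.8 and 114 CPM in KO against 81.6 and 89.2 CPM in WT. KO replicate 2 was the closest to WT, and VPS4B was higher by 0.35 ± 0.12 (adjusted p = 0.0271). That call was lost without WT replicate 1, WT replicate 2, KO replicate 1 or KO replicate 3, at adjusted p of 0.211, 0.0874, 0.0776 and 0.0672, with library totals at 0.324 and with a mean count of at least 50 at 0.0683.

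HOPS and CORVET share a core of VPS11, VPS16, VPS18 and VPS33A, and the core subunits did not move together. VPS16, which anchors VPS33A in the complex (chromosome 20, 2840703 to 2866732, 24 exons), had 34.4, 38.7 and 33.6 CPM in the KO libraries, against 93.5 and 87.9 CPM in the WT libraries. The KO mean was 39.2% of the WT mean, a log2 fold change of -1.36 ± 0.10 (adjusted p = 5.9e-06 in edgeR). PTPRA shares 558 nt of coding exon with VPS16 on the same strand. VPS18, a RING-domain scaffold subunit (chromosome 15, 40894430 to 40903975), had 34.2, 47.7 and 38.2 CPM in KO against 28.3 and 29.1 CPM in WT. KO replicate 2 was the highest and no KO library fell into the WT range, and VPS18 was higher by 0.47 ± 0.16 (adjusted p = 0.026), a call lost without WT replicate 1 (0.15) or WT replicate 2 (0.119). That call was also lost with upper quartile factors (0.0604), library totals (0.196) and a mean count of at least 50 (0.0559). VPS11, the other RING-domain scaffold, had 28.0, 33.6 and 26.3 CPM in KO and 32.2 and 33.0 CPM in WT. KO replicate 2 lay above both WT libraries and the others below, and the difference of -0.16 ± 0.13 (adjusted p = 0.314) became a fall of -0.27 without KO replicate 2 (adjusted p = 0.00918), and passed with library totals (0.0374) and thinned libraries (0.0445). VPS33A, the Sec1/Munc18 protein that guides SNARE assembly, had 95.2, 95.1 and 96.2 CPM in KO and 93.1 and 86.6 CPM in WT. Its KO values lay above both WT values, yet the difference of 0.09 ± 0.08 did not pass (adjusted p = 0.379).

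The subunits that set HOPS apart from CORVET were all lower, to unequal degrees. VPS8, which defines CORVET and whose yeast counterpart binds the Rab5 homologue (chromosome 3, 184812207 to 185052600, 48 exons), had 24.6, 27.3 and 24.3 CPM in the KO libraries, against 76.6 and 61.6 CPM in the WT libraries. KO stayed far below WT although the WT libraries differed by 15 CPM, and the log2 fold change was -1.45 ± 0.12 (adjusted p = 1.08e-05 in edgeR). VPS39, a HOPS subunit whose yeast counterpart binds the Rab7 homologue, had 34.1, 37.2 and 35.6 CPM in KO against 57.3 and 54.9 CPM in WT, a fall of 0.65 ± 0.09 (adjusted p = 0.000306). VPS41, the HOPS subunit at the other end of the complex, had 73.3, 67.2 and 74.2 CPM in KO against 90.7 and 93.5 CPM in WT. VPS41 fell by 0.36 ± 0.09 (adjusted p = 0.00585), and the call was lost without WT replicate 2 (0.067). For each footprint on VPS39 there were 0.713 footprints on VPS8 in KO and 1.23 in WT, a pair chosen after its values were seen. VPS33B, which replaces VPS33A in the separate CHEVI complex, had 20.7, 23.3 and 20.6 CPM in KO against 30.7 and 34.7 CPM in WT, a fall of 0.61 ± 0.12 (adjusted p = 0.00179) without overlap.

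Of 5 member promoters found to hold the letters CACGTG, those of VPS8, VPS16 and VPS11 are shown, and those of VPS37B and VPS50 are not. The letters are the E-box core of the element bound by TFEB, a transcription factor that drives lysosomal genes, and binding was not tested. The footprints of VPS8 and VPS16 fell and those of VPS11 did not pass. Each stretch runs from 100 bases before the RefSeq gene start through the first 25 bases from that start on the plus strand of GRCh38.p14. Capitals mark the motif, which reads the same on both strands.
VPS8 (chr3:184812066-184812190): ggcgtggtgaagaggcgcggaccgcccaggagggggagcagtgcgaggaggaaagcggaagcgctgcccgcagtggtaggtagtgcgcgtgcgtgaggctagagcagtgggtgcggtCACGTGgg
VPS16 (chr20:2840645-2840769): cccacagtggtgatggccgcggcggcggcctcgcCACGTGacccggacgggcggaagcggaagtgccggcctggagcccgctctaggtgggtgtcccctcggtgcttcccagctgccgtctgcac
VPS11 (chr11:119067718-119067842): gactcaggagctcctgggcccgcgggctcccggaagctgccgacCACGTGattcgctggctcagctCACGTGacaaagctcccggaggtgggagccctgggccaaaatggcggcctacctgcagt

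The motif began 17 bases downstream of the RefSeq start in VPS8, 66 bases upstream in VPS16, and 56 and 34 bases upstream in VPS11. In GENCODE release 29 the counted transcripts start elsewhere, at 184812207 (VPS8), 2840703 (VPS16) and 119067692 (VPS11). Seen from those starts, the motif of VPS8 lies upstream, that of VPS16 upstream as before, and both of VPS11 inside the transcript. A RefSeq window of 250 bases before to 50 after the start was matched by symbol for 21 of the 30 members, and CACGTG occurred in 5 of them (VPS8, VPS11, VPS16, VPS37B and VPS50), or 23.8%. Among all 8721 tested genes with such a window, 882 held it, or 10.1%. The longer form TCACGTGA, which contains CACGTG, was found in VPS11 alone among the 21, and in 2.01% of all windows. Of the 5 members with the motif, 2 were lower (VPS8 and VPS16), VPS37B was higher, and VPS11 and VPS50 did not pass.

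GARP returns vesicles from endosomes to the Golgi, and most of its subunits showed no difference that passed. VPS51, a subunit shared by GARP and EARP, had 36.6, 53.3 and 39.5 CPM in the KO libraries, and 39.7 and 38.1 CPM in the WT libraries. KO replicate 2 was the highest of all, the groups overlapped, and the log2 fold change of 0.14 ± 0.17 (adjusted p = 0.486) was -0.03 without that library. VPS53, another shared subunit, had 79.3, 75.8 and 74.0 CPM in KO and 73.3 and 77.1 CPM in WT, at 0.02 ± 0.09 (adjusted p = 0.834), and -0.01 without WT replicate 1 or without KO replicate 1. VPS52 was not analysed here.

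The GARP-specific subunit was the lower one of the group. VPS54, mutated in the wobbler mouse, had 16.7, 17.5 and 18.8 CPM in the KO libraries, against 31.4 and 32.5 CPM in the WT libraries. VPS54 (chromosome 2, 63893056 to 64019072) fell by 0.85 ± 0.11 (adjusted p = 0.000189 in edgeR), with all KO values well below both WT values. VPS50, which takes the place of VPS54 in EARP at recycling endosomes, had 44.12, 37.7 and 40.8 CPM in KO and 44.15 and 46.8 CPM in WT. The highest KO value lay just under the lowest WT value, and the difference of -0.15 ± 0.11 did not pass (adjusted p = 0.242), though it did with library totals (0.0116). There were 0.435 footprints on VPS54 per footprint on VPS50 in KO and 0.702 in WT, again a pair chosen after its values were seen.

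All 4 VPS13 genes were lower, VPS13B most. VPS13B, linked to Cohen syndrome and to the Golgi (chromosome 8, 99013266 to 99877580, 62 exons), had 44.7, 43.9 and 44.2 CPM in the KO libraries, against 114 and 119 CPM in the WT libraries. The KO libraries agreed within 1 CPM, and VPS13B fell by 1.39 ± 0.08 (adjusted p = 1.86e-06 in edgeR), to 38.1% of the WT mean. It lies above 50 Mb on chromosome 8, where 245 tested genes had a median of 0.10. VPS13D, needed for normal mitochondrial shape and clearance, had 51.2, 47.9 and 48.2 CPM in KO against 111 and 103 CPM in WT. VPS13D fell by 1.12 ± 0.09 (adjusted p = 7.97e-06), with KO at less than 50% of WT in the means.

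VPS13C and VPS13A fell less. VPS13C, which bridges the endoplasmic reticulum to late endosomes and lysosomes and is linked to Parkinson disease, had 335, 294 and 318 CPM in the KO libraries, against 546 and 577 CPM in the WT libraries. It fell by 0.83 ± 0.07 (adjusted p = 2.06e-05 in edgeR), without overlap. VPS13A, whose loss causes chorea-acanthocytosis, had 98.9, 84.0 and 95.3 CPM in KO against 148 and 150 CPM in WT. VPS13A fell by 0.68 ± 0.09 (adjusted p = 0.000219), with KO replicate 2 the lowest library. All 4 calls held with each library left out in turn.

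Genes with long coding sequences were lower in KO in general, and the VPS13 genes are among the longest. Their coding sequences run from 9522 nt (VPS13A) to 13164 nt (VPS13D), with 11130 nt in VPS13C and 12066 nt in VPS13B. The 97 tested genes with coding sequences of 9000 nt or more had a median log2 fold change of -0.51, and 54.6% of them were lower. Genes below 500 nt had a median of 0.24, with 22.0% lower. After a smooth fit on coding length, GC content and mean level over all genes, the VPS13 median was -0.73 in place of -0.98, and the family's median was -0.46 in place of -0.49. By the same fit VPS29 stood at -0.44 and VPS11 at 0.08, on the other side of 0 from their unadjusted values. Among called members the fit moved VPS25 to 0.02 and VPS4B to 0.13, VPS35 to -0.43, VPS18 to 0.77 and VPS13D to -0.68, each by more than 1.5 times. The part of length in the fall of the VPS13 genes was not tested further.

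**Figure D3:**
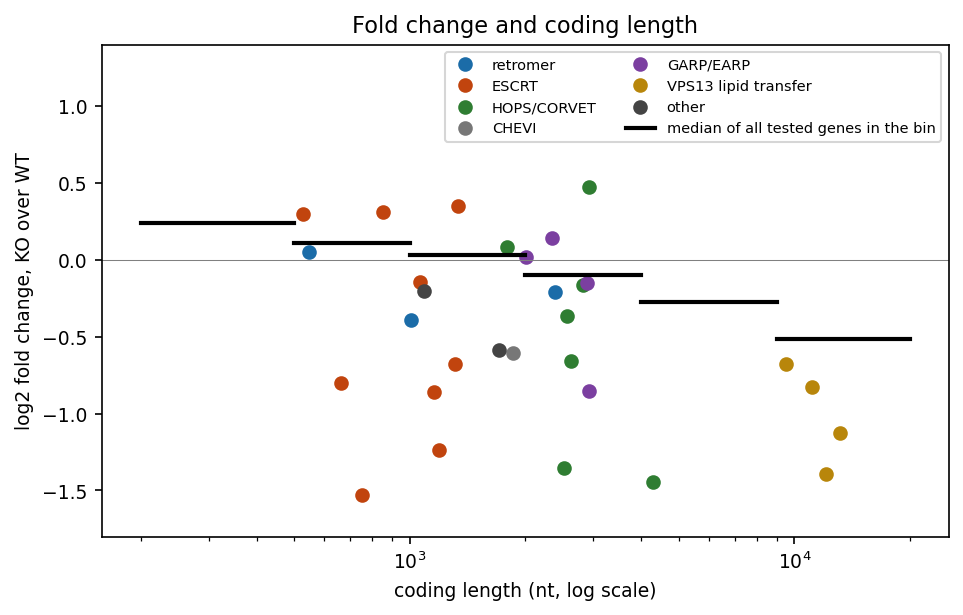
Log2 fold change, KO over WT, against coding length in nt (log scale) for the 30 VPS genes, coloured by complex. Black lines are medians of all tested genes per length bin, from 0.24 below 500 nt (drawn from 200 nt) to -0.51 at 9000 nt and more (a bin with no upper limit). The 4 VPS13 genes lie below the median of their bin, VPS13B at -1.39 and VPS13A at -0.68.

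VPS45 and VPS72 stand outside these complexes. VPS45, the Sec1/Munc18 partner of the Golgi and endosomal syntaxins, had 63.6, 57.8 and 62.9 CPM in the KO libraries, against 93.3 and 90.9 CPM in the WT libraries. It fell by 0.58 ± 0.09 (adjusted p = 0.000395 in edgeR), and no library overlapped. VPS72 is no sorting protein in human cells: it is the chromatin factor YL1, which helps deposit the histone variant H2A.Z. VPS72 had 57.0, 56.0 and 57.3 CPM in KO and 64.3 and 66.1 CPM in WT. All KO values lay below both WT values, yet the difference of -0.20 ± 0.08 did not pass (adjusted p = 0.0684), and it passed without KO replicate 2 (0.0134). VPS72 also passed as lower with upper quartile factors (0.0217), library totals (0.00208), a mean count of at least 50 (0.0196) and thinned libraries (0.04).

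Per coding kilobase, the scale on which genes can be compared, VPS29, VPS25 and VPS35 carried the densest footprints and VPS37D the sparsest. VPS29 had 374 ± 13.4 CPM per kilobase in KO and 360 ± 26.9 in WT (SD, n = 3 and n = 2, as for the other values here), the highest level of the family in both genotypes. VPS25 followed at 204 ± 5.79 in KO and 166 ± 12.4 in WT, and VPS35 at 164 ± 10.3 in KO and 189 ± 2.32 in WT, so the order of VPS25 and VPS35 was opposite in the genotypes. VPS26B, which joins VPS35 and VPS29 in retromer, was far lower, at 32.1 ± 2.29 in KO and 42.0 ± 2.6 in WT. VPS4B lay above VPS4A in KO, at 81.7 ± 10.0 against 57.2 ± 0.42 CPM per kilobase, whereas in WT it lay below, at 64.1 ± 4.06 against 91.6 ± 1.45.

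Among the tethering genes the densities lay closer together. In the HOPS and CORVET core, VPS33A had the highest density in both genotypes, 53.4 ± 0.34 CPM per kilobase in KO and 50.3 ± 2.58 in WT. VPS16 had 14.1 ± 1.1 and VPS18 13.7 ± 2.38 in KO, which do not differ beyond their spread, while in WT VPS16 had 36.0 ± 1.56 and VPS18 9.83 ± 0.2. VPS8 was the lowest of the 7 HOPS and CORVET genes in KO, at 5.94 ± 0.38, but not in WT, where it stood at 16.1 ± 2.47. Among GARP and EARP genes, VPS53 was the densest at 38.0 ± 1.35 in KO and 37.4 ± 1.34 in WT, and VPS54 the sparsest at 6.03 ± 0.35 in KO and 10.9 ± 0.26 in WT. VPS13C, at 28.4 ± 1.82 in KO and 50.4 ± 1.95 in WT, carried far more footprints per kilobase than VPS13B, at 3.67 ± 0.04 in KO and 9.64 ± 0.29 in WT. VPS13D was close to VPS13B, at 3.73 ± 0.14 in KO and 8.14 ± 0.4 in WT, and VPS13A lay between at 9.74 ± 0.82 in KO and 15.6 ± 0.17 in WT.

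**Figure D4:**
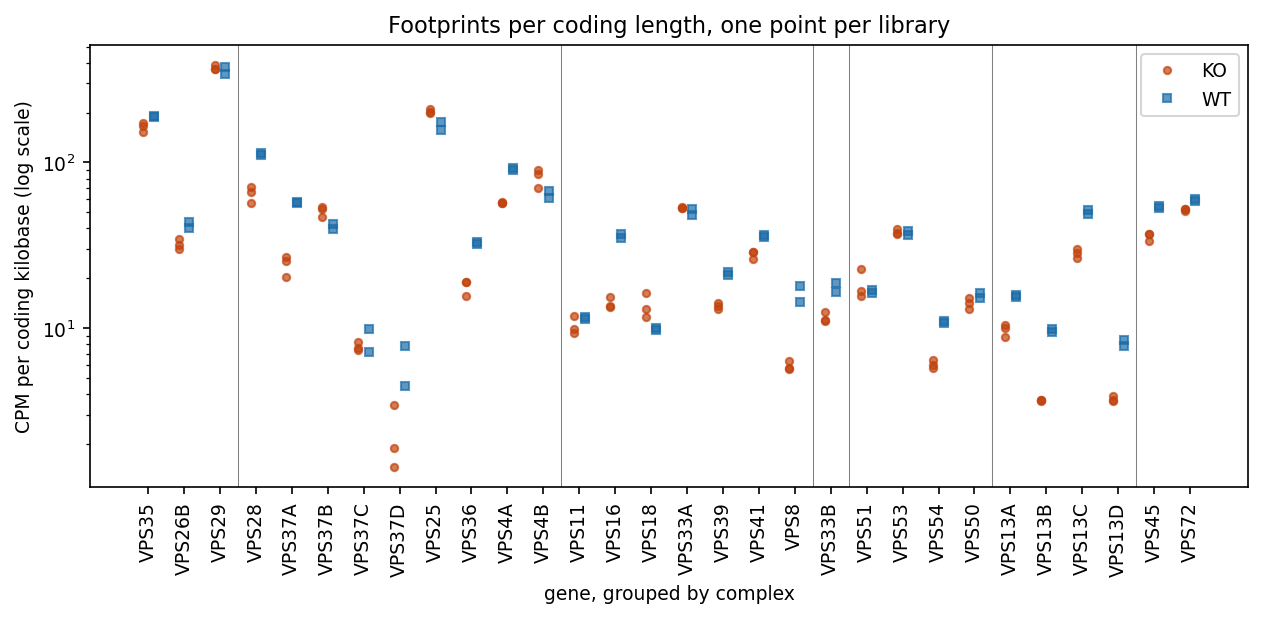
CPM per coding kilobase (log scale) of each VPS gene, with 1 point per library, KO circles left of WT squares, and vertical lines between complexes. VPS29, VPS35 and VPS25 lie at the top, and VPS37D has the lowest mean in both genotypes.

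Shares of raw counts within a paralog family do not depend on scaling between libraries. VPS4A took 38.4%, 44.4% and 39.9% of the VPS4A and VPS4B counts in the KO libraries, against 59.8% and 57.1% in the WT libraries. The major VPS4 paralog by counts was therefore VPS4B in every KO library and VPS4A in both WT libraries. VPS37A took 37.2%, 32.1% and 35.3% of the counts on the 4 VPS37 genes in KO, against 56.5% and 60.3% in WT, and VPS37B took 52.0%, 52.9% and 53.8% in KO, against 30.0% in each WT library. VPS37C had a mean share of 10.1% in KO and 7.73% in WT, and VPS37D of 2.12% in KO and 3.9% in WT.

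In the VPS33 and VPS13 families the paralog with the most counts was the same in both genotypes. VPS33A took 81.6% ± 1.12 of the VPS33 counts in KO and 73.3% ± 2.7 in WT (SD, n = 3 and n = 2). VPS13C held the largest VPS13 share in both genotypes, 62.9% ± 0.289 in KO and 60.1% ± 0.944 in WT. VPS13B held 8.84% in KO and 12.5% in WT, VPS13D 9.8% in KO and 11.5% in WT, and VPS13A 18.5% in KO and 15.9% in WT. In 9 of the 10 shares KO and WT did not overlap, which gave p = 0.1 in a two-sided exact permutation test over the 5 libraries, the smallest p that 3 against 2 libraries allow (0.111 adjusted over the 10). VPS37D was the exception, at p = 0.3 in the same exact test. The shares of a family add up to the whole, so the 10 are not separate results. On the unlike measure of CPM of single genes, 76.4% of all genes tested did not overlap.

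**Figure D5:**
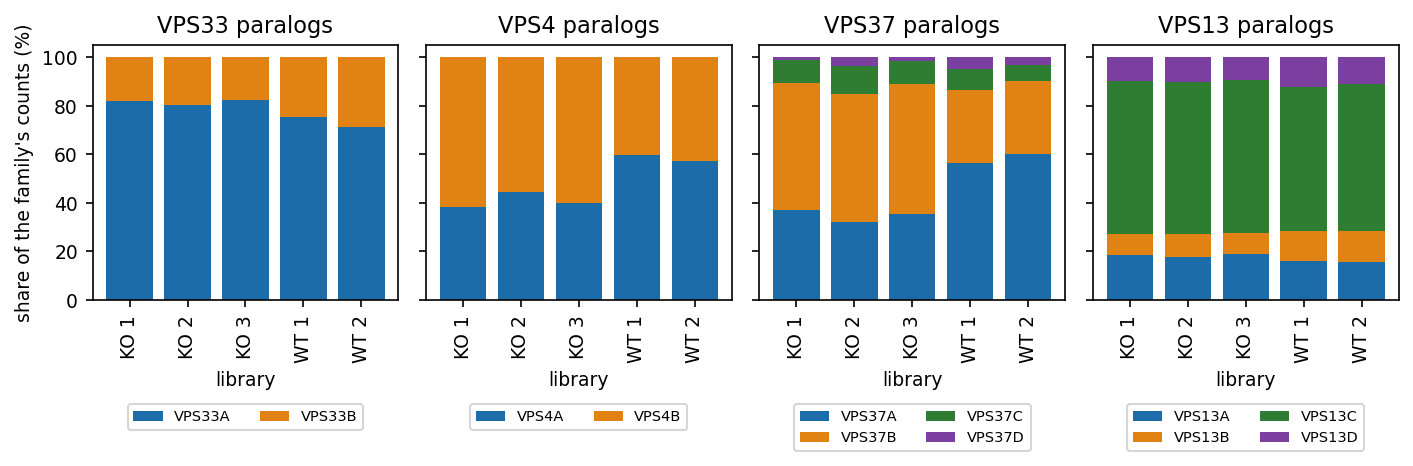
Share (%) of each paralog in the raw counts of its family, by library, for the VPS33, VPS4, VPS37 and VPS13 genes, with KO libraries left of WT. VPS4A holds 38.4% to 44.4% of its pair in KO and 57.1% to 59.8% in WT, and VPS37A and VPS37B exchange rank between the genotypes.

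The genes lie on 14 different chromosomes. Apart from VPS37A, no member sat among neighbours that were low as a group: the median log2 fold change of tested genes within 5 Mb ran from -0.22 around VPS37D to 0.43 around VPS41, a gene that was itself lower. VPS13C at -0.83 and VPS54 at -0.85 had neighbourhoods with medians of 0.16 and 0.18. VPS33B overlaps a same-strand readthrough gene over 1774 nt of coding exon and VPS33A another over 1594 nt. VPS51 has 326 nt, VPS13C 192 nt and VPS13A 100 nt of coding exon opposite an antisense gene, so their counts could hold reads of these transcripts.

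Partners of the VPS complexes that carry other names were lower and higher in more even numbers. Of 98 listed genes 85 were tested, of which 29 were lower, 22 were higher and 34 did not pass. Their median was -0.07 on the log2 scale, beside 30.2% higher and 29.8% lower among all genes. Both the higher and the lower count of partners fell without either WT library, where 1 WT sample is left, and so did both counts over all genes. Each list is described below mainly by its genes with the smallest adjusted p in edgeR. The shares of all genes given here are the background for the counts of each list.

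Among 12 tested retromer partners 3 were lower and 3 higher. TBC1D5, the Rab7 GTPase-activating protein bound to retromer, had 45.0, 40.7 and 43.6 CPM in the KO libraries, against 81.7 and 93.7 CPM in the WT libraries (-1.02 ± 0.10). The WASH complex, which builds actin on endosomes, had WASH1 at -1.05 ± 0.10 and CCDC53, the older symbol of WASHC3, at -0.63 ± 0.10, and WASH1 has near-identical copies in the genome that make its counts uncertain. SNX5, a sorting nexin that tubulates the membrane, was higher by 0.62 ± 0.09. Of 12 tested partners of retriever in the Commander complex, 5 were higher and 3 lower, with COMMD4 at 1.57 ± 0.10 and COMMD8 at 0.75 ± 0.10, against COMMD10 at -0.80 ± 0.10 and CCDC22 at -0.70 ± 0.12.

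Among 21 tested ESCRT partners 9 were lower and 5 higher. CHMP4C, an ESCRT-III subunit of the abscission checkpoint, had 0, 0.0619 and 0 CPM in the KO libraries, against 11.04 and 13.1 CPM in the WT libraries, and 0 counts allow up to 0.11 CPM in KO replicate 1 and 0.102 CPM in KO replicate 3. Its fall passed (adjusted p = 8.17e-07 in edgeR), and near 0 a fitted fold change has no fixed size. The ESCRT-III subunits CHMP2A and CHMP3 were lower as well, at -0.89 ± 0.09 and -1.66 ± 0.22, while CHMP1A, with 74.9, 82.1 and 78.0 CPM in KO against 32.2 and 31.5 CPM in WT, was higher by 1.30 ± 0.10.

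The tethers' partners include SNAREs, the proteins that drive fusion. Among 10 tested partners of HOPS, CORVET and CHEVI, 4 were lower and 1 higher, with a median of -0.32. The higher one, VAMP8, lay near the floor, with 0.77, 0.743 and 0.745 CPM in KO against 0.172 and 0.187 CPM in WT. Those WT values are what 1 count is worth in each library, and the call was lost in DESeq2 and with thinned libraries. STX8, a late endosomal SNARE, had 23.6, 20.6 and 21.7 CPM in KO against 58.8 and 58.2 CPM in WT (-1.41 ± 0.10), and VIPAS39, the CHEVI partner of VPS33B, stood at -0.65 ± 0.12. TGFBRAP1, the CORVET partner of VPS8, was at -0.50 ± 0.14 and RAB5A at -0.39 ± 0.13, and both calls were lost without WT replicate 1 (0.0678 and 0.144) or WT replicate 2 (0.0976 and 0.097).

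Among 10 tested partners of GARP and EARP, 3 were lower, 1 was higher and 6 did not pass, beside 29.8% lower and 30.2% higher among all genes. The 3 lower ones are SNAREs that act with GARP at the Golgi or its relatives. VAMP4 had 6.08, 4.03 and 5.18 CPM in KO against 24.8 and 22.0 CPM in WT (-2.18 ± 0.18). STX16, the syntaxin that VPS45 binds, was at -1.34 ± 0.11 and STX10 at -1.26 ± 0.12. Other SNAREs of the same list, STX6 at 0.04 ± 0.11 and VTI1A at -0.31 ± 0.13, did not pass (adjusted p = 0.795 and 0.0561 in edgeR). TMF1, a Golgi coiled-coil tether, was higher at 0.48 ± 0.18, a call lost without either WT library (0.137 and 0.232), KO replicate 1 (0.0848) or KO replicate 3 (0.0824), and with upper quartile factors (0.0655), library totals (0.217) or a mean count of at least 50 (0.0848).

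The class III PI3 kinase makes the endosomal lipid PI3P, which recruits ESCRT and retromer, and 3 of its 7 genes were lower and 2 higher. UVRAG was at -0.54 ± 0.13, RUBCN at -0.43 ± 0.12, the catalytic subunit PIK3C3 at -0.31 ± 0.10 and PIK3R4 at 0.36 ± 0.09. All 4 calls were lost without WT replicate 1 (adjusted p = 0.0814, 0.0795, 0.0685 and 0.0667), and those of RUBCN, PIK3C3 and PIK3R4 also without WT replicate 2 (0.0862, 0.201 and 0.0582). That of PIK3R4 was lost with library totals too (0.185). Of 6 tested relatives or partners of the VPS13 lipid channels, 3 were lower, 1 was higher and 2 did not pass. The lower ones were UHRF1BP1 at -0.71 ± 0.10, UHRF1BP1L at -0.60 ± 0.11 and ATG2B at -0.53 ± 0.09. ATG2A, which feeds lipid to growing autophagosomes like ATG2B, was higher at 0.93 ± 0.16.

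The receptors that these machines sort were mostly higher. Of 7 tested cargo genes 4 were higher and 1 lower, with a median of 0.38. M6PR, the cation-dependent mannose 6-phosphate receptor that delivers lysosomal enzymes, had 162, 166 and 161 CPM in the KO libraries, against 82.8 and 75.4 CPM in the WT libraries. All KO values lay above both WT values, with M6PR higher by 1.04 ± 0.08 and its fellow enzyme receptor SORT1 by 0.83 ± 0.08. SORL1, a retromer cargo and adaptor, had 57.0, 70.0 and 59.4 CPM in KO against 130 and 128 CPM in WT and fell by 1.06 ± 0.10 (adjusted p = 3.18e-05 in edgeR).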

How the data were processed

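Ribosome footprints of 28 to 32 nt were isolated from cycloheximide lysates of HAP1 cells digested with RNase I, per the labels' protocols. The labels' molecule field names polyA RNA, while the protocol describes footprints. The table that the authors deposited gives raw counts, each row a transcript with its gene symbol. Its values are whole numbers that sum to unequal totals, and its header line is shifted by 1 cell. Bowtie (version not given) and hg38 are named per the submitters' processing notes, and the counting tool, strand, treatment of duplicates and of reads with several matches were not given in the sources used here.

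Counts were tested in R 4.3.3 with edgeR 4.0.16 (TMM, filterByExpr with a minimum count of 10, quasi-likelihood F-test, genotype as the only term, all 5 libraries, Benjamini-Hochberg adjustment over 11205 genes), with DESeq2 1.42.0 as an alternative. Each SE was approximated from the fold change and its F statistic. The code was tested on simulated data. Positions and coding lengths came from GENCODE release 29 on GRCh38, and promoter sequence from RefSeq on GRCh38.p14.

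Members, complexes, partner lists and tests were chosen with earlier results of these data known. Every member is named, with ZCCHC4 and up to 4 genes per partner list by smallest adjusted p, except 1 gene that is not reported here, and ratios of alternative subunits were added after their values were seen. VPS9D1 and DSCR3 fall outside the symbol rule. A count of 0 allows up to 3 counts. This limit covers counting error only, since amplified footprints are not independent molecules. Alternatives covered scaling, the filter, the tool, replicate number, depth, gene properties and each library left out.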

Additional observations from a re-analysis of the deposited data

How the results depend on the processing

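Of the 18 lower VPS calls, 14 stayed lower and past the threshold in each of 14 alternatives, while 0 of the 4 higher calls and 0 of the 8 uncalled members kept their side and sign throughout. The number of higher members was 2 with upper quartile factors, 0 with library totals (edgeR, 0 at an unadjusted p), 1 with a mean count of at least 50, 0 with the WT libraries summed and KO replicates 1 and 3 summed (1 at an unadjusted p), and 0 to 4 with 1 library left out. With libraries thinned to the smallest total it was 4 higher and 20 lower, beside 3004 and 3084 genes in all. Over all genes the higher count was 3035 with upper quartile factors, 2391 with library totals and 2847 with a mean count of at least 50. Partners higher numbered 14 with library totals, 12 with summed libraries and 11 to 29 with 1 library left out, and partners lower 18 with summed libraries. With summed libraries the spread rests on 1 WT sample and 2 KO samples, and there, as without either WT library, the lone WT sample is assumed to vary like the KO samples. Calls lost with summed libraries were those of VPS35, VPS26B, VPS37B, VPS25, VPS4B, VPS18 and VPS41 (adjusted p in edgeR 0.0559 to 0.365) and of SNF8, TMF1, TGFBRAP1, RAB5A, UVRAG, PIK3R4, RUBCN and PIK3C3 (0.0525 to 0.243). VPS37D had no value with a mean count of at least 50, which removed it. For uncalled members the sign turned: VPS29 stood at -0.0086 with upper quartile factors, -0.16 with library totals, -0.016 with a mean count of at least 50, -0.020 to 0.13 with 1 library left out and -0.44 after the property adjustment, which was chosen after seeing the data. VPS53 stood at -0.041 with upper quartile factors, -0.20 with library totals, -0.049 with a mean count of at least 50, -0.044 with thinned libraries, and -0.014 to 0.059 with 1 library left out. VPS33A was at -0.13 and VPS51 at -0.075 with library totals, VPS51 at -0.032 to 0.24 and VPS37C at -0.35 to 0.11 with 1 library left out, and VPS11 at 0.082 after the property adjustment. The causes were not tested.

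KO and WT share the replicate numbers 1 and 2, but nothing in the labels ties equal numbers together. The deviations of same-numbered libraries from their group means correlated at -0.05 over 11205 genes in both pairs. Centring makes the deviations of the 2 WT libraries exact opposites and ties those of the KO libraries together. The correlations of the pairs are therefore not separate checks of pairing. With a replicate block 1 VPS gene was higher and 16 were lower, beside 3068 higher and 3026 lower over all genes. The calls of VPS35 (adjusted p = 0.141), VPS26B (0.0521), VPS37B (0.171), VPS25 (0.0702) and VPS4B (0.074) were lost in edgeR. Those of the partners RUBCN (0.0522) and PIK3C3 (0.0539) were lost as well. Depth limits the WT side most, where 1 count was worth 0.172 and 0.187 CPM, against 0.0339 to 0.0619 CPM in KO.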
